A study of Drosophila melanogaster with 13 samples.

Results

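The genes examined here are 10 circadian clock genes of Drosophila melanogaster: per, tim, Clk, cyc, vri, Pdp1, cwo, cry, dbt and Pdf. They were found through the gene symbols of the array's probe annotation, where dbt is listed under its other symbol dco. All 10 had a probe set, the array's unit of measurement, built from several short probes. Transcript forms of the same gene, those of Pdp1 among them, were not told apart. They account for 12 of the 18769 probe sets tested and for 10 of the 11981 genes with a probe set of their own. The genes tim and cwo have 2 probe sets each, and counts use the brighter one of each gene.

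RNA of adult heads was hybridised to Affymetrix arrays in 4 genotypes that differ in a pair of histone H3K9 methyltransferase genes, egg and Su(var)3-9. The double mutant was yw; egg235/CyO; Su(var)3-906, with 1 egg mutant chromosome over the balancer CyO and the Su(var)3-9 mutation. The egg mutant was yw; egg235/CyO, a heterozygote. The Su(var)3-9 mutant was yw; +/CyO; Su(var)3-906, written in the labels without a partner chromosome. The control was yw; +/CyO, so that yw and CyO were common to every genotype. Each genotype had 3 biological replicates, 12 arrays in all. Flies were reared at 25 °C and 70% humidity. The time of day, the light regime, the age and the sex are not given in the sources used here. Since several of these transcripts cycle every day, a difference in phase and a difference in level cannot be told apart.

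In the fly clock, the proteins CLK and CYC bind DNA as a pair and activate per, tim, vri, Pdp1 and cwo. PER and TIM enter the nucleus later and inhibit CLK and CYC, and the kinase DBT sets the pace of PER turnover. In a second loop, VRI represses and PDP1 activates Clk. The transcripts of per, tim and vri peak in the early night, whereas those of Clk and cry peak near dawn. The clock runs in brain pacemaker neurons, some of which release the neuropeptide PDF, and also in photoreceptors, glia and fat body. In the Release 6 annotation per lies on X, tim and vri on 2L, Clk, cyc and Pdp1 on 3L, and cwo, cry, dbt and Pdf on 3R. Clk and Pdp1 are close neighbours, with the starts of only 2 annotated genes between theirs.

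Values are log2 RMA signals, and values after ± are standard errors of a difference with n = 3 arrays per genotype. A change was called at an adjusted p under 0.05 (limma, Benjamini-Hochberg over all probe sets). Array medians ran from 5.71 to 6.14, and with 3 arrays a genotype their number sets the precision. The mutated genes themselves had no named probe set among those used, and the genotype labels were therefore not checked by them. The heads carried neuronal and photoreceptor transcripts in every genotype, but the control arrays stood apart. The median of 17 neuron markers was 10.50 to 10.57 in the double mutant, 10.71 to 10.76 in egg and 10.51 to 10.56 in Su(var)3-9 mutants, against 9.71 to 9.95 in the control. That of 17 gut markers was 5.39 to 6.91, 7.83 to 8.81 and 5.25 to 7.79 in those mutants, against 11.19 to 11.64 in the control, and 18 testis markers were at 5.14 to 6.16, 7.31 to 7.51 and 4.50 to 5.11, against 9.27 to 9.63. The median of 12 accessory gland markers was 5.73 to 7.65, 8.95 to 9.38 and 4.24 to 6.44 in those mutants, against 11.08 to 11.53 in the control. Gut, testis and accessory gland lie mainly or wholly outside the head, and how their transcripts came into the preparations was not tested. In heads measured in bulk, fewer cells of a type and less RNA per cell cannot be told apart.

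**Figure D1:**
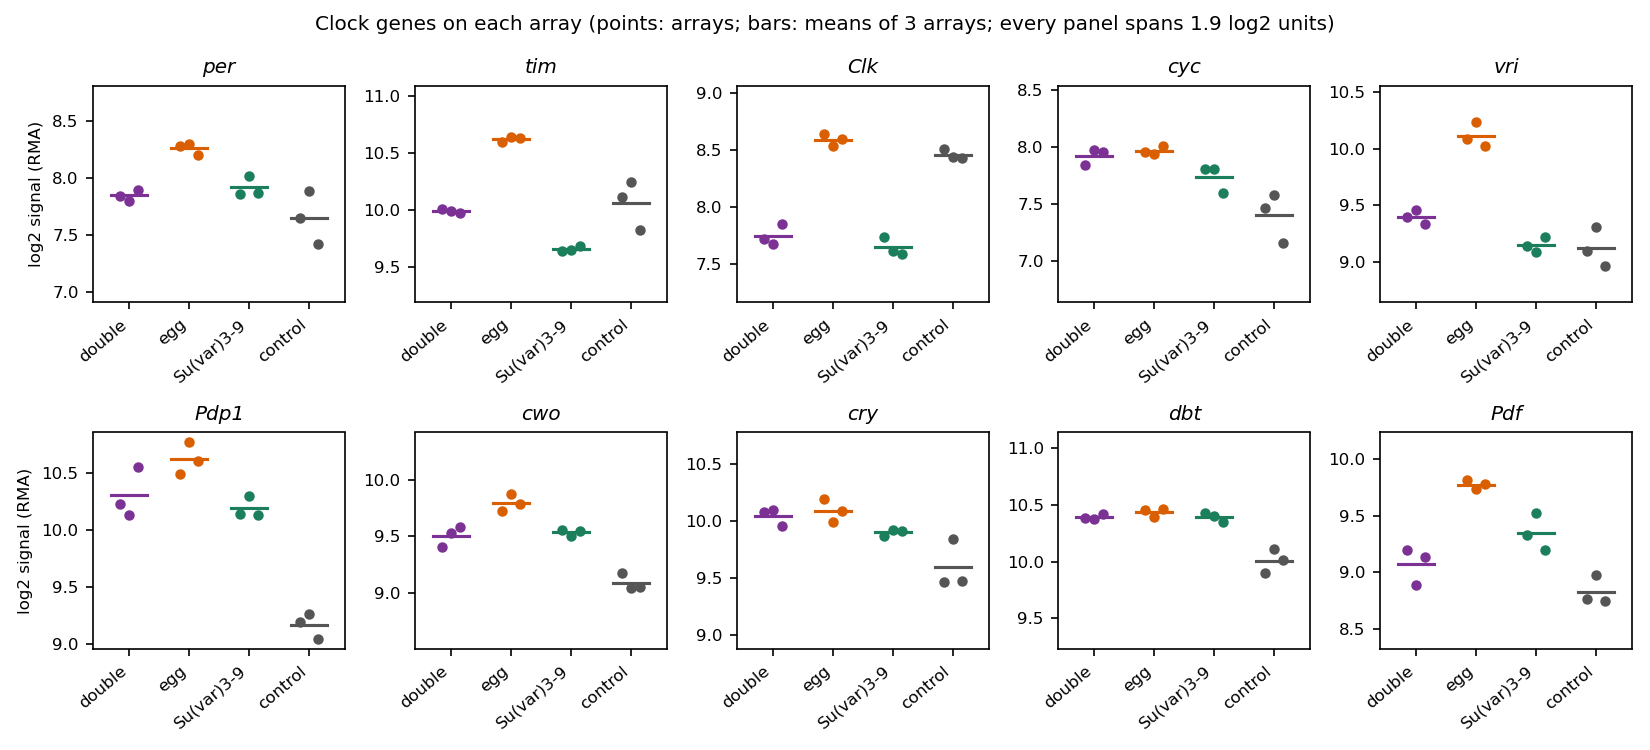
Log2 RMA signal of the 10 clock genes (brighter probe set) on each of 12 arrays, with genotypes along the x axis, points for arrays and bars for means of 3 arrays. Clk is low in both genotypes with the Su(var)3-9 mutation, Pdp1 is low in the control alone, and tim, vri and Pdf are highest in the egg mutant.

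Against the control, most clock genes gave higher deposited values in each mutant. In the double mutant, 6 of 10 rose (cyc, vri, Pdp1, cwo, cry and dbt) and 1 fell (Clk), with a median change of 0.33 against 0.17 over all genes; 42.2% of all genes were called higher and 23.8% lower. In the egg mutant 9 of 10 rose, all but Clk, with a median of 0.59 against 0.09 over all genes, where 36.4% were called higher and 26% lower. In the Su(var)3-9 mutant 7 rose (per, cyc, Pdp1, cwo, cry, dbt and Pdf) and 2 fell (tim and Clk), with a median of 0.32 against 0.18, where 43.3% were called higher and 23.8% lower. These 3 comparisons share the control arrays.

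Most members rose less than the median neuron marker. All 17 neuron markers rose in each mutant, by a median of 0.66 in the double mutant, 0.83 in the egg mutant and 0.61 in the Su(var)3-9 mutant. Only Pdp1 exceeded that median in the double mutant and in the Su(var)3-9 mutant, and vri, Pdp1 and Pdf did so in the egg mutant. When each array was centred on its neuron markers, the direction turned for most members: 1 was higher and 9 lower in the double mutant, 1 and 7 in the egg mutant, and 1 and 8 in the Su(var)3-9 mutant. The 1 higher gene was Pdp1 each time. The turn was not particular to the clock genes. Of 18769 probe sets, 15541, 17218 and 15222 were called in the double, egg and Su(var)3-9 mutants. Of these called probe sets 3.0%, 1.4% and 3.5% were higher. The median change was -0.54, -0.83 and -0.50 over all probe sets, against -0.40, -0.33 and -0.39 over the clock genes. These shares also apply to the later counts against the control with neuron markers.

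**Figure D2:**
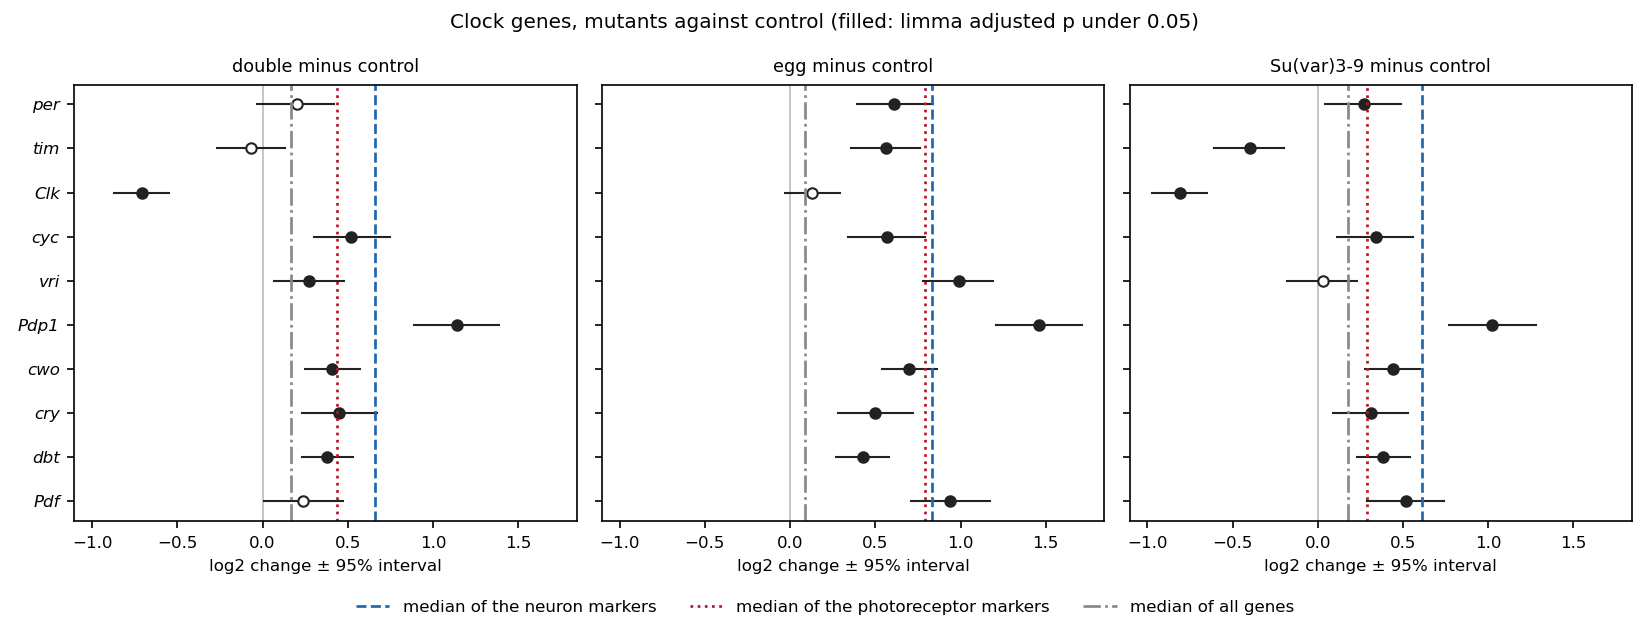
Log2 change of each clock gene against the control with its 95% interval, for the double, egg and Su(var)3-9 mutants from left to right, with filled points where the limma adjusted p was under 0.05. Dashed, dotted and dash-dotted lines mark the medians of 17 neuron markers, 13 photoreceptor markers and all genes, and Pdp1 lies right of all 3 lines in every panel.

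Clk, which encodes the activator that pairs with CYC, fell in both genotypes that carry the Su(var)3-9 mutation. It was at 7.72, 7.67 and 7.85 in the double mutant, at 8.64, 8.53 and 8.59 in the egg mutant and at 7.73, 7.61 and 7.59 in the Su(var)3-9 mutant, against 8.51, 8.44 and 8.43 in the control. The double and Su(var)3-9 mutants overlapped each other and lay below every egg mutant and control array. Against the control, Clk fell by 0.71 ± 0.07 in the double mutant (1.64-fold lower, limma adjusted p = 4.64e-06) and by 0.81 ± 0.07 in the Su(var)3-9 mutant (1.76-fold lower, adjusted p = 1.28e-06). In the egg mutant the difference of 0.13 ± 0.07 was not called (adjusted p = 0.17), with a 95% interval of -0.03 to 0.29, and its direction there depended on the scaling. It was called higher with arrays centred on their medians (0.36, adjusted p = 0.00186) and lower after cyclic loess (-0.21, adjusted p = 0.03), with photoreceptor markers (-0.66, adjusted p = 0.000106) and with neuron markers (-0.79, adjusted p = 3.51e-06). Both falls were called under every scaling of the arrays, with values of -0.36 to -1.43 in the double mutant and -0.44 to -1.53 in the Su(var)3-9 mutant.

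The partner gene cyc, whose transcript does not cycle in flies, took another course. It was at 7.85, 7.97 and 7.96 in the double mutant, 7.96, 7.94 and 8.01 in the egg mutant and 7.81, 7.81 and 7.60 in the Su(var)3-9 mutant, against 7.46, 7.58 and 7.16 in the control. All mutant arrays lay above all control arrays. The rises were 0.52 ± 0.10 in the double mutant, 0.57 ± 0.10 in the egg mutant and 0.34 ± 0.10 in the Su(var)3-9 mutant. After cyclic loess none of the 3 was called (0.19, 0.23 and 0.02, limma adjusted p = 0.11, 0.0586 and 0.893). As deposited, the last (adjusted p = 0.0141) was not called without control replicate 3, at 0.22 with an adjusted p of 0.0557.

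Pdp1, whose protein activates Clk, rose most of the 10 genes in every mutant. It was at 10.23, 10.14 and 10.56 in the double mutant, 10.49, 10.77 and 10.61 in the egg mutant and 10.15, 10.31 and 10.13 in the Su(var)3-9 mutant, against 9.19, 9.27 and 9.05 in the control. No mutant array came near the control. The rise was 1.14 ± 0.12 in the double mutant (2.20-fold, limma adjusted p = 3.77e-06), 1.46 ± 0.12 in the egg mutant (2.74-fold, adjusted p = 6.46e-07) and 1.02 ± 0.12 in the Su(var)3-9 mutant (2.03-fold, adjusted p = 9.33e-06). With arrays centred on neuron markers it was 0.41, 0.54 and 0.31 in those mutants and still called. In both genotypes with the Su(var)3-9 mutation, therefore, the neighbours Pdp1 and Clk moved in opposite directions against the control.

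The repressor of Clk in the same loop, vri, was highest in the egg mutant. It was at 9.40, 9.46 and 9.34 in the double mutant, 10.08, 10.23 and 10.02 in the egg mutant and 9.14, 9.09 and 9.22 in the Su(var)3-9 mutant, against 9.10, 9.31 and 8.97 in the control. The egg mutant stood above all other arrays, and the Su(var)3-9 mutant overlapped the control. Against the control vri rose by 0.99 ± 0.09 in the egg mutant (1.98-fold, limma adjusted p = 2.66e-06) and differed by 0.03 ± 0.09 in the Su(var)3-9 mutant (adjusted p = 0.818, 95% interval -0.18 to 0.23). The Su(var)3-9 mutant's value was called higher with array medians (0.40, adjusted p = 0.00201) and lower after cyclic loess (-0.23, adjusted p = 0.0354), with photoreceptor markers (-0.35, adjusted p = 0.0189) and with neuron markers (-0.69, adjusted p = 9.07e-06). The egg mutant's rise was not called with photoreceptor (0.20) or neuron markers (0.07). The rise of 0.27 ± 0.09 in the double mutant (adjusted p = 0.0253) was not called without double mutant replicate 1 (0.27, adjusted p = 0.0572) or 2 (0.24, adjusted p = 0.0739), or without control replicate 1 (0.26, adjusted p = 0.0656) or 3 (0.19, adjusted p = 0.104).

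The inhibitor genes per and tim were likewise highest in the egg mutant. The brighter tim probe set was at 10.01, 9.99 and 9.97 in the double mutant, 10.60, 10.64 and 10.63 in the egg mutant and 9.64, 9.65 and 9.68 in the Su(var)3-9 mutant, against 10.12, 10.25 and 9.82 in the control. The 3 mutants did not overlap one another, and the control overlapped the double mutant. Against the control tim rose by 0.56 ± 0.09 in the egg mutant (limma adjusted p = 0.000243) and fell by 0.40 ± 0.09 in the Su(var)3-9 mutant (adjusted p = 0.00263). The double mutant's difference of -0.07 ± 0.09 was not called (adjusted p = 0.534), but became -0.19 (adjusted p = 0.0384) without control replicate 3. It was called higher with array medians (0.28) and lower after cyclic loess (-0.34), with photoreceptor markers (-0.54) and with neuron markers (-0.79). The egg mutant's rise turned to -0.23 with photoreceptor markers (adjusted p = 0.0592) and to a called -0.36 with neuron markers.

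The dimmer tim probe set was at 8.11, 8.01 and 8.15 in the double mutant, 8.83, 8.79 and 8.47 in the egg mutant and 7.81, 7.81 and 7.70 in the Su(var)3-9 mutant, against 7.71, 8.40 and 7.59 in the control. It rose by 0.80 ± 0.17 in the egg mutant against the control, but its difference of -0.12 ± 0.17 in the Su(var)3-9 mutant was not called (limma adjusted p = 0.532). The fall of tim against the control in the Su(var)3-9 mutant therefore rests on 1 of its 2 probe sets, and with arrays centred on their medians that probe set gave -0.03 (adjusted p = 0.756).

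per was at 7.84, 7.80 and 7.90 in the double mutant, 8.29, 8.30 and 8.20 in the egg mutant and 7.86, 8.02 and 7.87 in the Su(var)3-9 mutant, against 7.65, 7.88 and 7.42 in the control. The egg mutant alone stood clear of the control. The rise was 0.61 ± 0.10 there (1.53-fold, limma adjusted p = 0.000276), and the double mutant's 0.20 ± 0.10 was not called (adjusted p = 0.121), though it became 0.31 (adjusted p = 0.0111) without control replicate 2. The rise of 0.27 ± 0.10 in the Su(var)3-9 mutant (adjusted p = 0.0397) was near the threshold. Leaving out any egg or Su(var)3-9 mutant array, double mutant replicate 1, or control replicate 1 or 3 ended that call, with values of 0.15 to 0.30 and adjusted p of 0.0501 to 0.165. After cyclic loess it was -0.05 (adjusted p = 0.734), and the egg mutant's rise was 0.27 (adjusted p = 0.0321).

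cwo encodes a repressor that binds the same sites as CLK and CYC. Its brighter probe set was at 9.41, 9.53 and 9.58 in the double mutant, 9.72, 9.88 and 9.79 in the egg mutant and 9.56, 9.51 and 9.55 in the Su(var)3-9 mutant, against 9.18, 9.05 and 9.06 in the control. The dimmer one was at 7.84, 7.75 and 7.99, at 8.21, 8.27 and 8.18 and at 7.97, 7.77 and 7.78 in those mutants, against 7.21, 7.09 and 6.91. On both probe sets every mutant array lay above every control array. Against the control the rises were 0.41 ± 0.07 and 0.79 ± 0.10 in the double mutant, 0.70 ± 0.07 and 1.15 ± 0.10 in the egg mutant, and 0.44 ± 0.07 and 0.77 ± 0.10 in the Su(var)3-9 mutant, brighter probe set first. After cyclic loess the brighter one was called only in the egg mutant (0.39, limma adjusted p = 0.000689), with 0.12 (adjusted p = 0.218) in the double and 0.18 (adjusted p = 0.0594) in the Su(var)3-9 mutant.

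cry encodes the light sensor that triggers TIM degradation. It was at 10.08, 10.10 and 9.96 in the double mutant, 10.20, 9.997 and 10.09 in the egg mutant and 9.87, 9.92 and 9.92 in the Su(var)3-9 mutant, against 9.46, 9.84 and 9.48 in the control. The mutants lay above the control and close to each other. The rises were 0.45 ± 0.10, 0.50 ± 0.10 and 0.31 ± 0.10, and the last (limma adjusted p = 0.0183) was not called without control replicate 1 (0.25, adjusted p = 0.0772) or 3 (0.25, adjusted p = 0.0695). After cyclic loess none of the 3 was called (0.18, 0.22 and 0.07, adjusted p = 0.137, 0.0708 and 0.553).

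dbt, the kinase gene, had close values in the 3 mutants. It was at 10.38, 10.37 and 10.42 in the double mutant, 10.45, 10.39 and 10.46 in the egg mutant and 10.43, 10.40 and 10.35 in the Su(var)3-9 mutant, against 9.90, 10.11 and 10.02 in the control. The rises against the control were 0.38 ± 0.07, 0.43 ± 0.07 and 0.38 ± 0.07 in those mutants, with limma adjusted p of 0.00052, 0.000219 and 0.000515. After cyclic loess none of the 3 was called (0.13, 0.17 and 0.17, adjusted p = 0.137, 0.0573 and 0.0552).

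Pdf, the neuropeptide gene of pacemaker neurons, was highest in the egg mutant. It was at 9.20, 8.89 and 9.13 in the double mutant, 9.81, 9.73 and 9.77 in the egg mutant and 9.33, 9.52 and 9.20 in the Su(var)3-9 mutant, against 8.77, 8.98 and 8.75 in the control. The egg mutant stood above all other arrays, and the double mutant overlapped the control. Pdf rose by 0.94 ± 0.10 in the egg mutant (1.92-fold, limma adjusted p = 9.75e-06) and by 0.52 ± 0.10 in the Su(var)3-9 mutant (1.43-fold, adjusted p = 0.0011). The double mutant's 0.24 ± 0.10 (adjusted p = 0.0664) was not called, but was called without double mutant replicate 2 (0.33, adjusted p = 0.0186), control replicate 2 (0.31, adjusted p = 0.0299) or Su(var)3-9 replicate 2 (0.24, adjusted p = 0.0492). With arrays centred on their medians it was called as well (0.60), and with neuron markers it was called lower (-0.48). The egg mutant's rise was not called with photoreceptor (0.15) or neuron markers (0.02), nor the Su(var)3-9 mutant's after cyclic loess (0.25, adjusted p = 0.0726) or with either marker list.

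The double mutant was then set against the egg mutant, a comparison that uses no control array. Here 6 of the 10 clock genes fell (per, tim, Clk, vri, cwo and Pdf) and none rose, with a median change of -0.37 against -0.00 over all genes, where 9.61% were called higher and 10.1% lower. Clk fell by 0.84 ± 0.07 (1.79-fold lower, limma adjusted p = 1.17e-05), vri by 0.71 ± 0.09 (1.64-fold lower, adjusted p = 0.000303), Pdf by 0.70 ± 0.10 (1.62-fold lower, adjusted p = 0.000786) and tim by 0.63 ± 0.09 (1.55-fold lower, adjusted p = 0.000707). In these 4 genes, and in per and cwo, every double mutant array lay below every egg mutant array. The share of all genes without overlap is not given here. The calls of tim, Clk, vri and Pdf held with arrays centred on medians, on neuron markers or on photoreceptor markers and after cyclic loess. Their values were -0.31 to -0.63 for tim, -0.52 to -0.84 for Clk, -0.40 to -0.71 for vri and -0.38 to -0.70 for Pdf. The dimmer tim probe set fell by 0.61 ± 0.17 (adjusted p = 0.03).

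The falls of per and cwo were smaller and depended on single arrays and on the scaling. per fell by 0.41 ± 0.10 (limma adjusted p = 0.0163) and was not called without egg replicate 1 (-0.40, adjusted p = 0.0575) or 2 (-0.40, 0.0574), or without double mutant replicate 1 (-0.41, 0.0512) or 2 (-0.39, 0.0504). It was not called with array medians either (-0.29, adjusted p = 0.081), nor with photoreceptor markers (-0.10, adjusted p = 0.376). cwo fell by 0.29 ± 0.07 (adjusted p = 0.019) and was not called without egg replicate 2 (-0.25, 0.0794) or 3 (-0.29, 0.0587) or without double mutant replicate 1 (-0.24, 0.0874). cwo was also not called with array medians (-0.16) or neuron markers (-0.09), and centring on photoreceptor markers turned its value to 0.03. Its dimmer probe set fell by 0.36 ± 0.10 (adjusted p = 0.0227).

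Of the other 4 genes, Pdp1 was 0.32 ± 0.12 lower and not called (limma adjusted p = 0.0863), but became -0.44 (adjusted p = 0.0207) without double mutant replicate 3. For cyc, cry and dbt the differences were -0.04 ± 0.10, -0.05 ± 0.10 and -0.04 ± 0.07, with 95% intervals of -0.27 to 0.18, -0.27 to 0.17 and -0.20 to 0.11.

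The egg mutant was also set against the Su(var)3-9 mutant, with the same egg mutant arrays. Here 7 clock genes were higher (per, tim, Clk, vri, Pdp1, cwo and Pdf) and none lower, with a median of 0.38 against 0.01 over all genes, where 17.3% were called higher and 14.4% lower. The changes of tim and vri were each 0.96 ± 0.09 (1.95-fold, limma adjusted p = 1.24e-05 and 1.36e-05), and that of Clk was 0.94 ± 0.07 (1.92-fold, adjusted p = 2.15e-06). Every egg mutant array lay above every Su(var)3-9 mutant array in all 7 genes, and also in cyc and cry, which were not called. The share of all genes without overlap is not given here. The calls of tim, vri and Clk held under each scaling, with lowest values of 0.55, 0.55 and 0.53, all with arrays centred on photoreceptor markers.

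Smaller rises were seen for Pdp1 (0.43 ± 0.12, limma adjusted p = 0.0153), Pdf (0.42 ± 0.10, adjusted p = 0.0103), per (0.34 ± 0.10, adjusted p = 0.0272) and cwo (0.26 ± 0.07, adjusted p = 0.022). None of these 4 calls held with arrays centred on medians or on either marker list, and on photoreceptor markers the values were 0.02, 0.01, -0.07 and -0.15. Pdp1 was not called without egg replicate 2 (0.36, adjusted p = 0.0687). per was not called without egg replicate 1 (0.33, 0.0753) or 2 (0.32, 0.0836) or Su(var)3-9 replicate 1 (0.31, 0.0772) or 3 (0.32, 0.074), and cwo without egg replicate 2 (0.22, 0.0883) or 3 (0.26, 0.0579) or Su(var)3-9 replicate 2 (0.24, 0.0647).

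Markers of other cells also differed between these mutants. In the double mutant against the egg mutant, 6 of 13 photoreceptor markers and 3 of 17 neuron markers were lower and none higher, with medians of -0.31 and -0.24. In the egg mutant against the Su(var)3-9 mutant, 11 of 13 and 8 of 17 were higher and none lower, with medians of 0.41 and 0.28. The median of 7 head fat body markers was 11.06 to 11.31 in the double mutant, 8.10 to 8.63 in the egg mutant and 11.01 to 11.38 in the Su(var)3-9 mutant, against 9.10 to 10.31 in the control. The median change of these fat body markers against the control was 1.73 in the double mutant, -0.04 in the egg mutant and 1.65 in the Su(var)3-9 mutant. Testis markers differed as well, with 14 of 18 lower in the double than in the egg mutant and 14 of 18 higher in the egg than in the Su(var)3-9 mutant, and accessory gland markers with 11 of 12 in each. The part of fat body, testis and accessory gland transcripts in the clock gene differences was not tested.

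**Figure D3:**
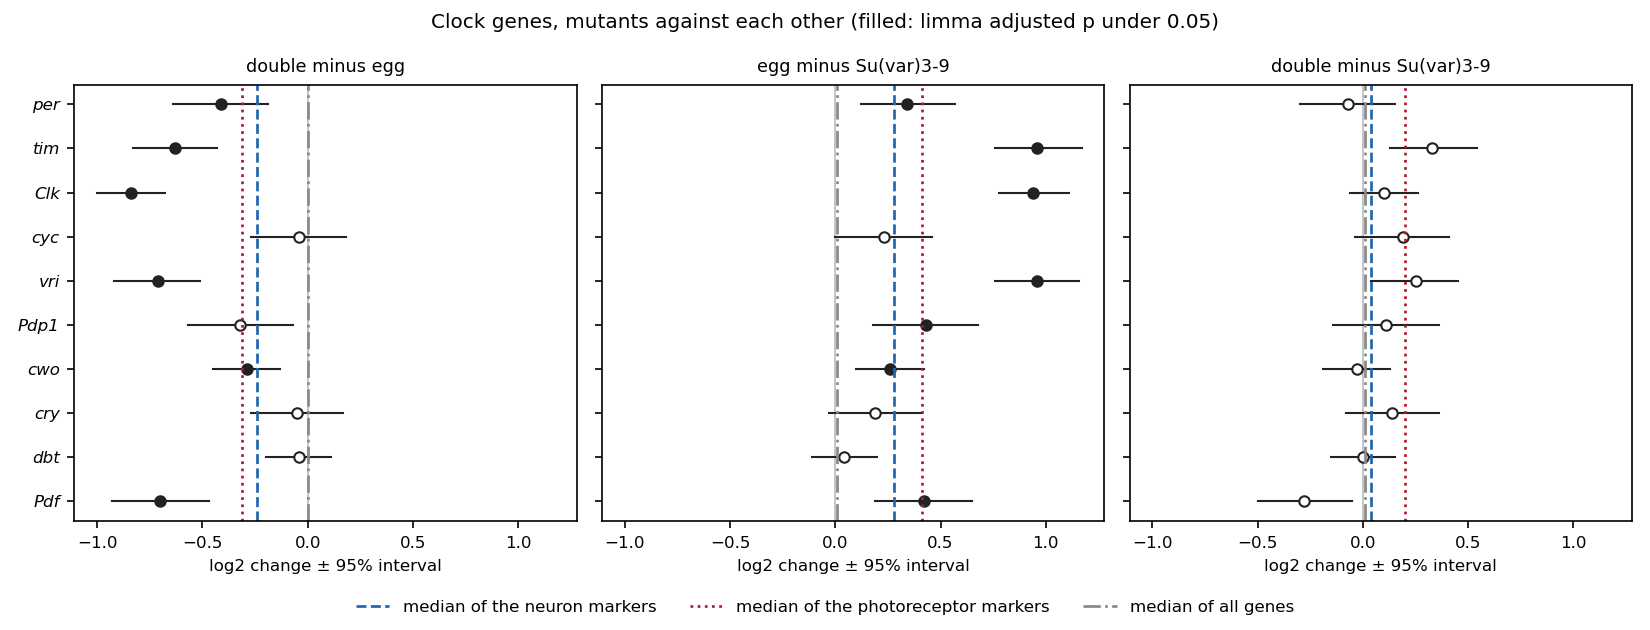
Log2 change of each clock gene between mutants with its 95% interval, for double minus egg, egg minus Su(var)3-9 and double minus Su(var)3-9 from left to right, with filled points where the limma adjusted p was under 0.05. Lines mark the medians of the neuron markers, photoreceptor markers and all genes. per, tim, Clk, vri, Pdp1 and Pdf lie left of all 3 lines in the first panel, where Pdp1 is not filled. tim, Clk, vri, Pdp1 and Pdf lie right of them in the second, and no point is filled in the third.

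Between the double mutant and the Su(var)3-9 mutant none of the 10 clock genes was called by limma. Over all genes 3.09% were called higher and 2.9% lower. At an unadjusted p under 0.05 there were 3 clock genes, tim, vri and Pdf, against 19.8% of all genes. tim was 0.33 ± 0.09 higher (adjusted p = 0.0627), with no overlap between the arrays, and was called without control replicate 2 (adjusted p = 0.0263) or 3 (adjusted p = 0.00925). vri was 0.25 ± 0.09 higher (adjusted p = 0.184) and Pdf 0.28 ± 0.10 lower (95% interval -0.50 to -0.05, adjusted p = 0.186). The arrays did not overlap in vri, Pdf, cyc and cry either. Clk differed by 0.10 ± 0.07, with a 95% interval of -0.06 to 0.26.

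**Figure D4:**
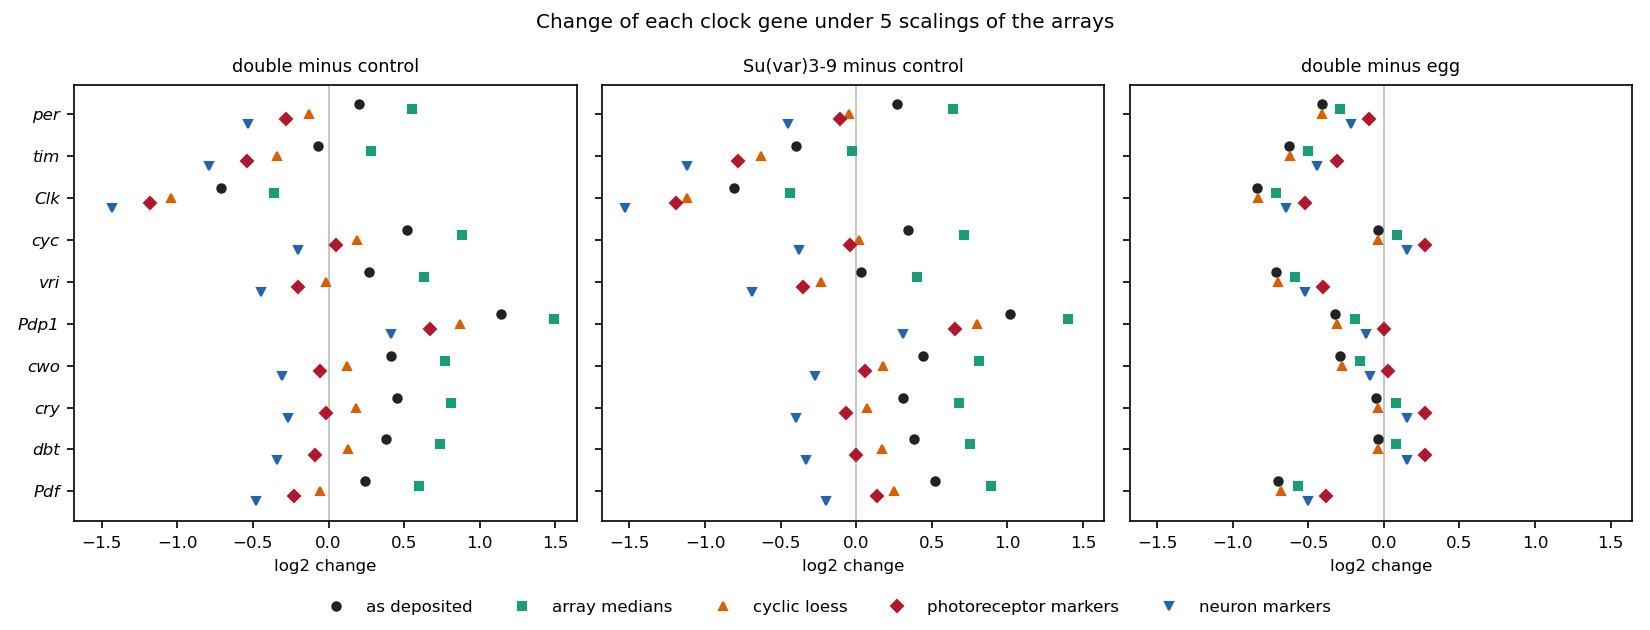
Log2 change of each clock gene under 5 scalings of the arrays (as deposited, centred on array medians, cyclic loess, centred on photoreceptor markers, centred on neuron markers), for the double mutant against the control, the Su(var)3-9 mutant against the control and the double against the egg mutant. Pdp1 stays right of 0 and Clk left of 0 in the first and second panels, and tim, Clk, vri and Pdf stay left of 0 in the third.

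The early-night transcripts per, tim and vri were next set against Clk, Pdp1 and cry as a set, each gene taken relative to its own control mean. The mean of per, tim and vri was 0.14, 0.14 and 0.12 on the double mutant arrays, 0.71, 0.78 and 0.67 on the egg mutant arrays and -0.07, -0.02 and -0.02 on the Su(var)3-9 mutant arrays, against 0.01, 0.20 and -0.21 in the control. The mean of Clk, Pdp1 and cry was 0.27, 0.23 and 0.38 in the double mutant, 0.70, 0.69 and 0.69 in the egg mutant and 0.18, 0.21 and 0.14 in the Su(var)3-9 mutant, against -0.02, 0.11 and -0.09 in the control. On the egg mutant arrays the 2 means were close, although within the second set Pdp1 (1.46) and cry (0.50) rose and Clk (0.13) was not called.

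The difference between the sets, per, tim and vri minus Clk, Pdp1 and cry, averaged -0.16 ± 0.09 in the double mutant, 0.02 ± 0.05 in the egg mutant and -0.21 ± 0.05 in Su(var)3-9 mutants, against 0.00 ± 0.11 in the control (SD, n = 3 each). The Su(var)3-9 mutant's range of -0.24 to -0.16 lay below the control's of -0.12 to 0.09, while the double mutant's range of -0.26 to -0.09 overlapped it. No test was made on these sets of chosen genes. The second set was not uniform, since Clk fell and Pdp1 rose against the control in both genotypes with the Su(var)3-9 mutation. tim, vri and Clk, drawn from both sets, were all lower in the double than in the egg mutant.

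**Figure D5:**
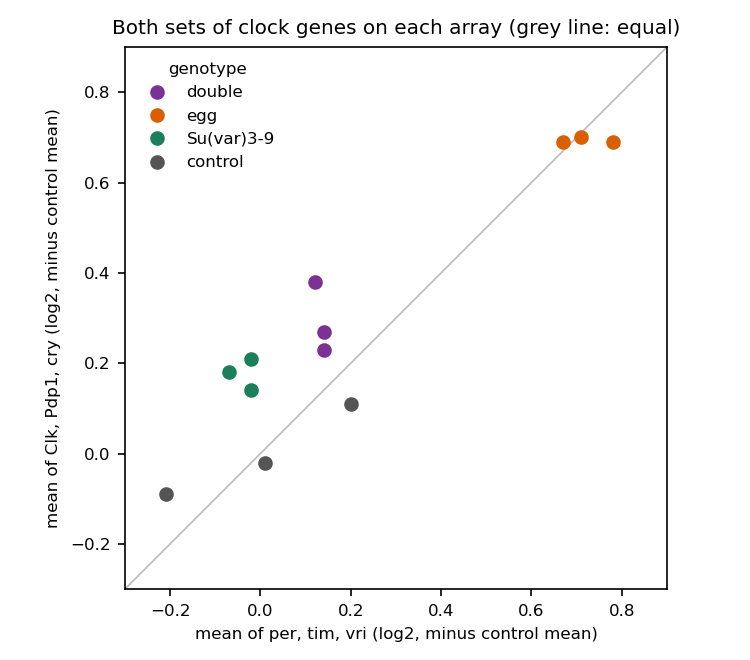
Mean of per, tim and vri (x axis) and mean of Clk, Pdp1 and cry (y axis) on each array, in log2 units relative to each gene's control mean, with points coloured by genotype and a line of equality. The egg mutant arrays sit at 0.67 to 0.78 and 0.69 to 0.70, and all double and Su(var)3-9 mutant arrays lie above the line.

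The similarity of profiles was measured as the root mean square difference of mean-centred log2 values over the 12 arrays. The nearest other genes were picked from the non-members among 11981 genes, and the closest clock gene from the 10 members alone. With so unequal a choice, smaller distances to other genes do not show that clock genes follow them more than each other. The nearest other genes to per were trpl, a photoreceptor channel gene, at 0.052, hfp at 0.065 and CG12239 at 0.066, and its closest clock gene was cwo at 0.146. tim was nearest to Lk6 at 0.098, alrm at 0.125 and CG3097 at 0.130, and vri to Gat, a GABA transporter gene, at 0.079 and to Orcokinin and CG31706 at 0.119 each. tim and vri were each other's closest clock gene, at 0.186.

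The distance grows with the spread of a gene's own profile, whose SD over the arrays was 0.58 for Pdp1, 0.44 for Clk and 0.26 for per. Pdp1 was nearest to CG32206 and CG15353 at 0.117 each and to ct, a homeodomain gene, at 0.118, and its closest clock gene was cwo at 0.324. Clk was nearest to CG5639 at 0.141, Rb97D at 0.154 and Idh3g at 0.168, with tim the closest clock gene at 0.256. cry was nearest to CG9609 and CG13937 at 0.058 each and CG7220 at 0.070, with dbt at 0.10.

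Genes that act around these members were examined as lists. Of 10 regulators of clock protein stability, 9 rose and 1 fell in the double mutant, 9 and 1 in the egg mutant and 8 and 1 in the Su(var)3-9 mutant against the control. Over all genes the called shares were 42.2% higher and 23.8% lower, 36.4% and 26%, and 43.3% and 23.8%. The list medians were 0.42, 0.37 and 0.34, against 0.17, 0.09 and 0.18 over all genes. Centring on neuron markers turned the counts to 0 higher and 5 lower, 1 and 7, and 0 and 7. The kinase gene CkIalpha rose by 0.76, 0.65 and 0.61 in those mutants, slmb, whose product sends phosphorylated PER to degradation, by 0.75, 0.70 and 0.71, and the phosphatase subunit gene wdb by 0.83, 0.32 and 0.80. The ubiquitin ligase gene Cul3 fell by 0.80, 0.76 and 0.70. Between mutants, Usp8, which encodes a deubiquitinase of CLK, was 0.90 ± 0.09 lower in the double than in the egg mutant (limma adjusted p = 2.31e-05) and 0.72 ± 0.09 higher in the egg than in the Su(var)3-9 mutant. wdb was 0.51 ± 0.10 higher in the double than in the egg mutant, and tws, another phosphatase subunit gene, 0.52 ± 0.09 higher in the egg than in the Su(var)3-9 mutant.

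Of 12 transcription and RNA cofactors, 6 rose in the double mutant, 10 in the egg mutant and 6 in the Su(var)3-9 mutant against the control and none fell, whereas with arrays centred on neuron markers none rose and 8, 10 and 10 fell. The 6 of 12 in the double and in the Su(var)3-9 mutant is near the share of all genes called higher there (42.2% and 43.3%). The list medians were 0.28, 0.48 and 0.23, against 0.17, 0.09 and 0.18 over all genes. tyf, a translational activator of per, rose by 0.62, 0.76 and 0.49, the chromatin remodeller gene kis by 0.59, 0.83 and 0.49, Fer2, needed for some PDF neurons, by 0.58, 0.44 and 0.81, and tara by 0.49, 0.65 and 0.43. In the double against the egg mutant 3 of 12 fell, against 10.1% of all genes, among them nej, which encodes the CBP coactivator, by 0.48 ± 0.11 (limma adjusted p = 0.0103) and the RNA-binding protein gene lark by 0.35 ± 0.07 (adjusted p = 0.0063). In the egg against the Su(var)3-9 mutant 7 were higher and 1 lower, against 17.3% and 14.4% of all genes. These counts became 2 and 1 with array medians, 5 and 0 after cyclic loess, 0 and 1 with neuron markers and 0 and 4 with photoreceptor markers. kay, a bZIP factor gene, was 0.47 ± 0.12 higher there (adjusted p = 0.012), and Fer2 was the lower one, with a change of -0.37 ± 0.11 (adjusted p = 0.0247). The lower calls in the double against the egg mutant did not hold with arrays centred on neuron markers, where 1 of 12 was called higher and none lower. Of the 6984 probe sets called in that setting, 88.5% were higher.

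Of 14 neuropeptides and receptors of the pacemaker network, 12 rose in each mutant against the control and none fell, against 3 higher and 4 lower in the double, 2 and 7 in the egg and 2 and 5 in the Su(var)3-9 mutant with arrays centred on neuron markers. Over all genes 42.2%, 36.4% and 43.3% were called higher. The list medians were 0.58, 0.76 and 0.56, against 0.17, 0.09 and 0.18 over all genes. sNPF rose by 1.18, 1.37 and 0.80 in those mutants, SIFa by 1.10, 0.49 and 1.18, the leucokinin receptor gene Lkr by 1.09, 0.82 and 1.19, and AstC by 0.90, 1.20 and 0.79. SIFa was 0.61 ± 0.11 higher in the double than in the egg mutant (limma adjusted p = 0.0024), opposite to Pdf, and AstC was lower there, with a change of -0.30 ± 0.07 (adjusted p = 0.0135). In the egg against the Su(var)3-9 mutant 4 were higher and 2 lower, against 17.3% and 14.4% of all genes, with sNPF at 0.56 ± 0.13 and SIFa at -0.69 ± 0.11. The counts turned to 2 higher and 4 lower with array medians, 1 and 5 with neuron markers and 0 and 7 with photoreceptor markers, and were 4 and 1 after cyclic loess.

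Of 12 genes of clock output and membrane excitability, 11 rose in the double mutant, 10 in the egg mutant and 11 in the Su(var)3-9 mutant against the control and none fell, whereas with arrays centred on neuron markers 1 rose and 4 fell, 1 and 5, and 2 and 3. The share of all genes called higher was 42.2%, 36.4% and 43.3%. The list medians were 0.56, 0.71 and 0.58, against 0.17, 0.09 and 0.18 over all genes. dysc rose by 1.19, 1.52 and 1.22, Nf1 by 0.90, 0.90 and 0.83, the sodium leak channel gene na by 0.82, 0.69 and 1.11, and wake by 0.66, 0.72 and 0.63. Between mutants, e, which encodes an enzyme that conjugates dopamine in glia, was 1.35 ± 0.18 higher in the double than in the egg mutant (limma adjusted p = 0.000292) and its change in the egg against the Su(var)3-9 mutant was -1.77 ± 0.18 (adjusted p = 1.59e-05). qsm, a gene of light input to the clock neurons, was 0.48 ± 0.07 higher in the double than in the egg mutant, with a change of -0.48 ± 0.07 in the egg against the Su(var)3-9 mutant. None of the genes on these 4 lists was called between the double and the Su(var)3-9 mutant.

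Last, the change that goes with the egg mutation was compared between backgrounds, as the double against the Su(var)3-9 mutant minus the egg mutant against the control. Of the 10 clock genes 6 had a called negative interaction and none a positive one, with a median of -0.55 against -0.11 over all genes, where 21.7% were called higher and 27.7% lower. All 17 neuron markers were called lower as well, with a median of -0.86. Pdp1 had the interaction of largest size, -1.34 ± 0.16 (limma adjusted p = 4.44e-05), and it was -0.44 with arrays centred on neuron markers (adjusted p = 0.0184). Clk had none that was called, at -0.03 ± 0.10 (95% interval -0.25 to 0.20), although it was called positive after cyclic loess (0.29, adjusted p = 0.0404), with photoreceptor markers (0.67, adjusted p = 0.00331) and with neuron markers (0.88, adjusted p = 5.59e-05). Also called positive were tim (0.68), cry (0.55), cyc (0.53) and dbt (0.48) with neuron markers, and tim (0.47) with photoreceptor markers. Centring on markers shifts the interaction of every probe set by the same amount. The median and called shares of all genes for the interaction under these scalings are not given here.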

How the data were processed

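The deposited log2 signals were made with RMA, and limma is also listed, per the submitters' processing notes. Versions and settings are not given in the sources used here. The RMA method removes background, normalises between arrays and summarises probes, so a change of total RNA per head would not show. Of 13 arrays 12 were used, because the second array of a technical pair of control replicate 1 has an empty column. The 183 Affymetrix controls were left out. Probe sets were named from the platform annotation, updated through the Release 6 gene table, only where it gives 1 symbol (13646 of 18769).

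A linear model with 4 genotype means was fitted to the log2 values of all 18769 probe sets with limma 3.58.1 (lmFit, eBayes, R 4.3.3; 8 residual and 4.162 prior degrees of freedom). Tests were two-sided with Benjamini-Hochberg adjustment per contrast. Genes were counted by their brightest probe set. On simulated data for egg against control, with 200 probe sets changed, the fit recovered 43% of changes of 0.5 and 95% of changes of 1 on the log2 scale. In the real comparison 9550 probe sets were called, and the adjustment depends on that number. The simulated percentages therefore do not tell how often the reported tests find such changes. Tables and figures used Python 3.11.15, pandas 2.3.3 and matplotlib 3.10.9. The settings varied were the replicate number as a block, fitting each pair of genotypes alone, eBayes with trend and robust, weighted arrays, dropping probe sets whose mean signal was under the 40th percentile, centring of arrays on their medians, on neuron markers or on photoreceptor markers, cyclic loess, an average over all probe sets of each gene, adjusted p under 0.01, and leaving out each array.

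The members, the lists and the alternatives were chosen with earlier results of these data known. Beside all members, up to 4 genes per list called in the same direction in all 3 mutants were named, ordered by the change in the double mutant, and up to 2 per contrast between mutants, and the 3 nearest profiles of 6 members. Listed genes not used here are sgg, CkIIalpha, CkIIbeta, nmo, mts, Eip75B, Mef2, hug, to and Fas2, and from the head marker lists Syt1, Syx1A, ninaE, ninaC, ninaA, norpA, Rh3, Rh4, Rh5, Rh6 and Ggamma30A. A planned search of promoters for motifs was not run, since no promoter sequence was used here.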

Additional observations from a re-analysis of the deposited data

Results flagged for a closer look

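In 6 clock genes the change that goes with the egg mutation differed between the background with and the background without the Su(var)3-9 mutation, by the interaction test in limma. The interaction is the double mutant minus the Su(var)3-9 mutant, minus the difference between the egg mutant and the control. It was -1.34 for Pdp1 (adjusted p = 4.44e-05), where the difference was 0.11 between double and Su(var)3-9 mutants and 1.46 between egg mutant and control. It was -1.21 for Pdf (adjusted p = 4.71e-05), with differences of -0.28 and 0.94 in the same order, and -0.74 for vri (adjusted p = 0.000782), with 0.25 and 0.99. It was -0.73 for cwo (adjusted p = 0.000155), with -0.03 and 0.70, -0.68 for per (adjusted p = 0.00255), with -0.07 and 0.61, and -0.43 for dbt (adjusted p = 0.00422), with -0.00 and 0.43.

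The control arrays enter each of these values. A score of other tissues, averaged over the marker medians of testis, gut and muscle, was 7.25 to 8.04 in double mutants, 8.93 to 9.09 in egg mutants and 7.06 to 7.98 in Su(var)3-9 mutants, against 10.95 to 11.23 in the control. The neuron markers had a median interaction of -0.86 (17 of 17 called lower) and the photoreceptor markers one of -0.70 (10 of 13). The part of these transcripts in the interactions was not tested further than by centring the arrays on the neuron or photoreceptor markers. With neuron markers Pdp1 was at -0.44 and Pdf at -0.31 (limma adjusted p = 0.066). There per, vri and cwo turned to 0.23, 0.17 and 0.18, not called, and dbt to 0.48, called positive (adjusted p = 0.00144). With photoreceptor markers Pdp1 was at -0.65 and Pdf at -0.52 (adjusted p = 0.0122), both still called, and per, vri, cwo and dbt, at 0.01, -0.04, -0.03 and 0.27, were not called. Cyclic loess also ended the calls of per (-0.36, adjusted p = 0.0565) and dbt (-0.20, adjusted p = 0.114).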

How the results depend on the processing

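Of 60 results (10 clock genes in 6 comparisons), 38 were called, and 12 of these kept their direction and their call under all 10 alternatives and 13 omissions of arrays. They are Pdp1 in each mutant against the control, Clk in the double and Su(var)3-9 mutants against the control, tim, Clk, vri and Pdf in the double against the egg mutant, and tim, Clk and vri in the egg against the Su(var)3-9 mutant. Of the 38, 20 turned direction under at least 1 alternative. The cause of the changes listed here was not tested.

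Replicate numbers did not pair the samples: over 18 pairs of same-numbered arrays the correlation of deviations ran from -0.36 to 0.10. With a replicate block the number of clock genes called stayed at 7 for double against control, 9 for egg against control, 9 for Su(var)3-9 against control, 6 for double against egg, 0 for double against Su(var)3-9, 7 for egg against Su(var)3-9 and 6 for the interaction.

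The scaling of the arrays mattered most. As deposited, 70.1%, 62.8% and 71.9% of probe sets called in the double, egg and Su(var)3-9 mutants against the control were higher, against 86.6%, 80.4% and 86.8% with arrays centred on their medians, 37.3%, 37.8% and 38.7% after cyclic loess, 3.0%, 1.4% and 3.5% with neuron markers and 11.1%, 2.1% and 21.0% with photoreceptor markers. The median change of all probe sets in these comparisons was 0.18, 0.09 and 0.21 as deposited, 0.54, 0.32 and 0.58 with medians, -0.00, -0.01 and -0.00 after cyclic loess, -0.54, -0.83 and -0.50 with neuron markers and -0.29, -0.70 and -0.17 with photoreceptor markers. For the double against the egg mutant the share was 50.9% as deposited and 79.3%, 44.2%, 88.5% and 94.6% under those settings in the same order, with medians of 0.03 as deposited and 0.16, -0.03, 0.23 and 0.35. For the egg against the Su(var)3-9 mutant it was 49.1% as deposited and 19.2%, 58.0%, 13% and 5.2%, with medians of -0.06 as deposited and -0.20, 0.03, -0.26 and -0.47. Between double and Su(var)3-9 mutants it was 49.2% as deposited and 25.0% with photoreceptor markers, with medians of -0.01 and -0.11.

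Counts of called clock genes moved by over 1.5 times in these cases. For double against control the count was 3 after cyclic loess and 4 with photoreceptor markers, in place of 7. For egg against control it was 4 with photoreceptor markers in place of 9. For Su(var)3-9 against control it was 4 after cyclic loess and 4 with photoreceptor markers in place of 9. For double against Su(var)3-9 it was 1 (tim) in place of 0 in a fit of only the groups compared, with trend and robust eBayes, with array weights, without low probe sets and with neuron markers, and 0 to 1 when single arrays were left out. For egg against Su(var)3-9 it was 3 in place of 7 with array medians, with neuron markers and at an adjusted p under 0.01, 4 with photoreceptor markers, and 4 to 7 when arrays were left out, with 4 without egg replicate 2.

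Directions turned as follows. With array medians the value was 0.28 for tim in double against control, 0.09 for cyc, 0.08 for cry and 0.08 for dbt in double against egg, and -0.10 for dbt in egg against Su(var)3-9. After cyclic loess it was -0.13 for per, -0.02 for vri and -0.06 for Pdf in double against control, -0.21 for Clk in egg against control, -0.05 for per and -0.23 for vri in Su(var)3-9 against control, -0.00 for dbt in egg against Su(var)3-9, and 0.01 for tim and 0.29 for Clk in the interaction. With the mean of both probe sets tim in double against control was 0.06, and with array weights dbt in double against Su(var)3-9 was 0.01.

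With neuron markers the double against control gave -0.53 for per, -0.20 for cyc, -0.45 for vri, -0.31 for cwo, -0.27 for cry, -0.34 for dbt and -0.48 for Pdf. The egg against control gave -0.31 for per, -0.36 for tim, -0.79 for Clk, -0.35 for cyc, -0.22 for cwo, -0.42 for cry and -0.49 for dbt. The Su(var)3-9 against control gave -0.45 for per, -0.38 for cyc, -0.69 for vri, -0.27 for cwo, -0.40 for cry, -0.33 for dbt and -0.20 for Pdf. The double against egg gave 0.15 for each of cyc, cry and dbt, and the egg against Su(var)3-9 gave -0.02 for cry and -0.16 for dbt. The interaction gave 0.23 for per, 0.68 for tim, 0.88 for Clk, 0.53 for cyc, 0.17 for vri, 0.18 for cwo, 0.55 for cry and 0.48 for dbt.

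With photoreceptor markers the double against control gave -0.28 for per, -0.20 for vri, -0.06 for cwo, -0.02 for cry, -0.09 for dbt and -0.23 for Pdf. The egg against control gave -0.18 for per, -0.23 for tim, -0.66 for Clk, -0.22 for cyc, -0.09 for cwo, -0.29 for cry and -0.36 for dbt. The Su(var)3-9 against control gave -0.11 for per, -0.04 for cyc, -0.35 for vri and -0.07 for cry. The double against egg gave 0.27 for each of cyc, cry and dbt and 0.03 for cwo. The egg against Su(var)3-9 gave -0.07 for per, -0.18 for cyc, -0.15 for cwo, -0.22 for cry and -0.37 for dbt. The interaction gave 0.01 for per, 0.47 for tim, 0.67 for Clk, 0.32 for cyc, 0.34 for cry and 0.27 for dbt.

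Leaving out arrays turned only uncalled values. The ranges were -0.06 to 0.12 for vri in Su(var)3-9 against control, -0.19 to 0.02 for tim in double against control, -0.10 to 0.00 for cry in double against egg, and -0.08 to 0.02 for Clk in the interaction. In double against Su(var)3-9 they were -0.02 to 0.02 for dbt, -0.07 to 0.02 for cwo and -0.01 to 0.20 for Pdp1. Leaving out both double mutant replicate 2 and Su(var)3-9 replicate 3, which had the highest other-tissue score of their genotype, was chosen after seeing the data and gave -0.01 for vri in Su(var)3-9 against control. It also ended the calls of per and cry in Su(var)3-9 against control (0.29 and 0.30), vri in double against control (0.24), per and cwo in double against egg (-0.39 and -0.30) and per and cwo in egg against Su(var)3-9 (0.32 and 0.26), and it added calls of Pdf in double against control (0.33) and of cyc in the interaction (-0.47). The difference between the early-night set and the other set, mutant minus control, was -0.22 to -0.11 in the double mutant, -0.04 to 0.07 in the egg mutant and -0.27 to -0.16 in the Su(var)3-9 mutant when arrays were left out. The egg value of 0.02 became -0.04 without control replicate 3, which moved each of the 3 by more than the SD of 0.05 between egg or between Su(var)3-9 mutant arrays, though by less than that of 0.11 between control arrays.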

Other observations

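The clock genes deviated from their control means in the same direction on single control arrays. On control replicate 2, 8 of the 10 clock genes were above their control mean, with a median deviation of 0.16, and on control replicate 3 it was 1 of 10, with a median of -0.12. Over all probe sets those medians were 0.02 and -0.00, and the share of all probe sets above their control mean is not given here. Deviations from the mean of a genotype offset each other, so the counts on these control arrays are not separate observations. On the 9 mutant arrays 3 to 7 of the 10 clock genes were above the mean of their genotype, with median deviations of -0.04 to 0.04. The SD of the mean of per, tim and vri was 0.01 in the double mutant, 0.05 in the egg mutant and 0.02 in Su(var)3-9 mutants, against 0.21 in the control. The neuron marker median was 9.95 on control replicate 2 and 9.71 on replicate 3. That of photoreceptor markers was 12.10 and 11.84, and that of head fat body markers 10.31 and 9.47. Glia markers were also higher on replicate 2, whereas testis, gut, muscle and accessory gland markers were lower there.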
